A study of Homo sapiens with 3 samples.

Results

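The collagen genes of RH30 cells are described here. RH30 is a human cell line of alveolar rhabdomyosarcoma, a soft tissue tumour of skeletal muscle lineage. The members are the probe sets that name exactly 1 gene with a symbol of the form COL, number, A, number: 73 probe sets for 32 genes, of 19064 probe sets for 11963 genes. RNA from 3 cultures was hybridised to 1 expression array each, with no replicates: untreated cells, cells given 10 µM of a mutated form of the anti-MYCN peptide nucleic acid (PNA, in which bases are carried on a chain of amide bonds), and cells given 10 µM of a PNA directed against the MYCN gene. Both PNAs acted for 12 hours, and the untreated array is labelled 12 hours too. All cells came from 1 line grown in medium with foetal bovine serum. Whether the 3 cultures were set up independently is not given in the sources used here. Every difference is therefore one between single arrays, with no test and no p-value. The title and treatment text of the untreated array call it untreated while its source name says mutated PNA, so any direction between the controls rests on that label.

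Collagens are secreted proteins in which 3 chains wind into a triple helix, and each gene encodes 1 kind of chain. Fibrillar collagens such as types I, II, III, V and XI assemble into banded fibrils of the interstitial matrix. Type IV collagen forms the sheet-like network of basement membranes, which surround each muscle fibre. Fibril-associated collagens with interrupted helices (FACIT) sit on fibril surfaces, type VI forms beaded filaments, and multiplexins (types XV and XVIII) lie near basement membranes.

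The genes COL4A1 and COL4A2, which encode both chains of the common type IV network, lie head to head on chromosome 13 and are neighbours in the RefSeq gene order. The stretch between their start sites was 126 bases long. It is shown because both genes were bright and higher than both controls on the anti-MYCN PNA array, COL4A1 not so when arrays were scaled to a common median. The upstream bases of COL5A1, a bright fibrillar gene, and of COL15A1, which was lower on that array, are shown beside it. All are from RefSeq, build GRCh38.p14, on the plus strand, at chr13:110307158-110307283, chr9:134641553-134641802 and chr9:98943657-98943906. Capitals mark a match to the letters CCAAT or to a GC box, searched as GGGCGG, whose reverse complement is CCGCCC.
COL4A1 to COL4A2: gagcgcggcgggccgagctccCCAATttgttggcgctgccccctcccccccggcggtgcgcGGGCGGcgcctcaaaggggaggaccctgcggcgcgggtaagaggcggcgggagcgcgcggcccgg
COL5A1: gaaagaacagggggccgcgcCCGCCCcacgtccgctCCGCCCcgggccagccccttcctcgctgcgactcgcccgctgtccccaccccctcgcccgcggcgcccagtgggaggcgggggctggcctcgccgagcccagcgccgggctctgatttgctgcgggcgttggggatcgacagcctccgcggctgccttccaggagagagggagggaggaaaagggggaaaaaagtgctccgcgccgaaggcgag
COL15A1: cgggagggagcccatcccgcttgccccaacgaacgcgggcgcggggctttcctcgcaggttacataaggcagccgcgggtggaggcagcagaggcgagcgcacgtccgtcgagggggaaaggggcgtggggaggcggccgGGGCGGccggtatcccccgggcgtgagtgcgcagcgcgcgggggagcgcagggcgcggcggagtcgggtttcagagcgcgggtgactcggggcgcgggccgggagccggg

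The RefSeq table of windows from 250 bases before to 50 after a start site held 23 of the 32 collagen genes. On both strands, a GC box was present for 16 of these 23 genes and in 45% of all 35116 windows. It was present for all 8 measured genes that the table held. The letters CCAAT were present for 9 of 23 genes and in 34.6% of all windows. The core of the classical promoter box, TATAAA, was found for 5 of 23 genes and in 11.5% of windows. The E-box CACGTG, a sequence that MYC-family factors are known to bind, was found for none of the 23 genes and in 7.26% of all windows. Genes can have several windows, so shares of genes and of windows are not the same measure, and an absent match says only that those letters are not in that window.

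The deposited signals are linear intensities made with MAS5. A gene is called measured here when its brightest probe set averaged 117 or more across the 3 arrays, the pooled median of all gene probe sets. Of all genes on the array 56.4% were measured, and of the collagen genes 12 of 32, or 37.5%. A further line at 528, the pooled 75th percentile, was passed by 6 collagen genes, or 18.8%, and by 30.6% of all genes. Signals of different probe sets are not amounts of transcript, so a bright chain cannot be said to be more abundant than a dim one. The filter uses the mean of the arrays, and 2 genes passed with 1 array under 117: COL15A1 with its anti-MYCN PNA array and COL18A1 with its mutated PNA array. COL18A1 had the lowest mean inside the filter, 119, and COL1A1 the highest outside, 103.

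The targeted gene MYCN read 3313 (untreated), 2804 (mutated PNA) and 2202 (anti-MYCN PNA) by its brightest probe set. Its anti-MYCN PNA array differed on the log2 scale by −0.35 from mutated PNA and −0.59 from untreated. For 95% of genes of like signal the 2 controls lay within 0.37, so the smaller difference was inside that distance. Mutated PNA itself differed from untreated by −0.24. The other MYCN probe sets read at most 55.3. All 24 probe sets for bacterial poly-A spikes had their lowest value on the anti-MYCN PNA array, with a median ratio of 0.382 to mutated PNA and 0.410 to untreated. The part of this in the collagen values was not tested. Of 12 muscle lineage markers on the array 8 were measured, including MYOD1 at 6715, 6266 and 7834 and desmin (DES) at 911, 923 and 1609, in the order untreated, mutated PNA, anti-MYCN PNA. That order holds for every set of 3 signals below. None of 6 endothelial and none of 5 leukocyte markers was measured, with signals from 0.80 to 83.3. Of 8 epithelial markers 1 was measured, KRT18 at 658, 365 and 397. Of 11 fibroblast markers, 2 were measured, PDGFRA and FBLN1, and the summed signal of the list was 749, 789.8 and 1021. The part of this list in the collagen values was not tested. Decorin (DCN) and lumican (LUM), defining fibroblast genes, had signals of at most 87.1 and 8.1.

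**Figure D1:**
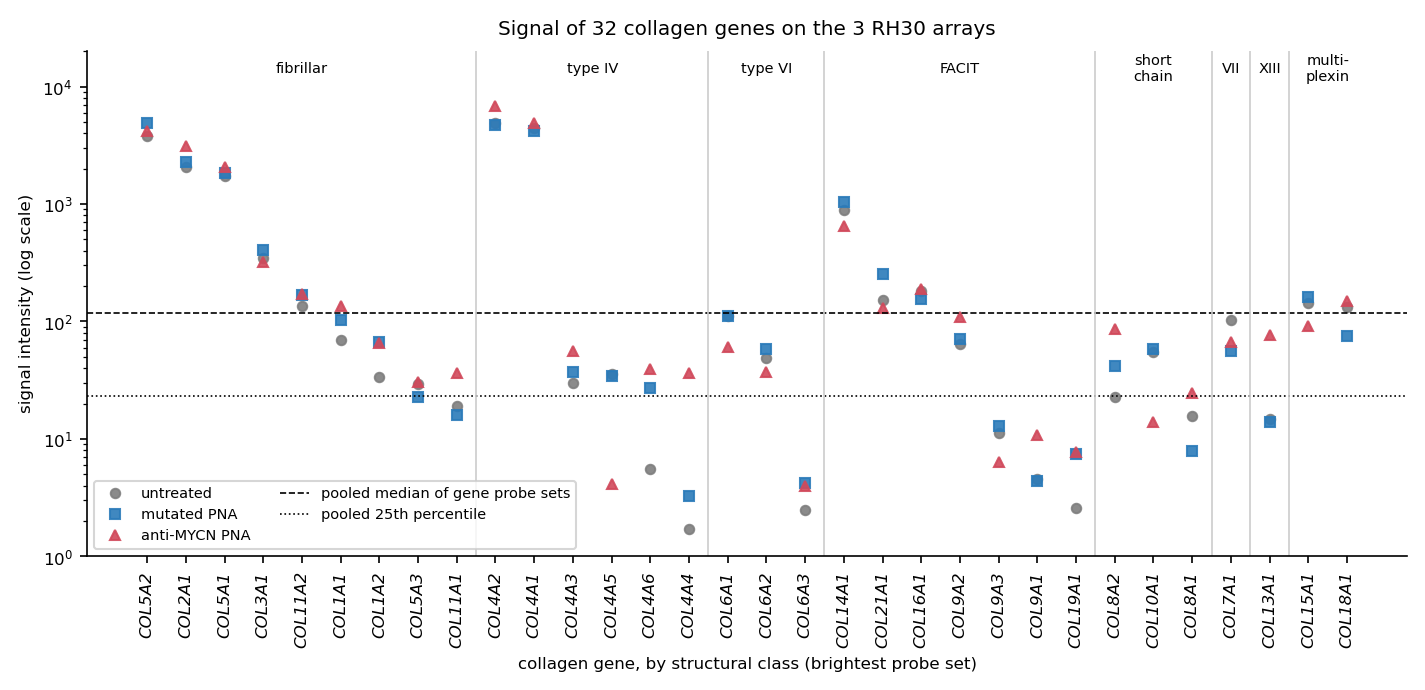
Signal intensity (log scale) of the brightest probe set of each of the 32 collagen genes, grouped by structural class, with 1 point per array. The dashed line is the pooled median, 117, and the dotted line the pooled 25th percentile, 23.4. COL5A2, COL2A1, COL5A1, COL4A1, COL4A2 and COL14A1 lie above 528 on all 3 arrays, and type I and type VI chains lie mostly below the dashed line.

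Among fibrillar collagens, 5 of the 9 genes on the array were measured: COL5A2, COL2A1, COL5A1, COL3A1 and COL11A2. The type V chain genes, whose product co-assembles with type I collagen and governs fibril diameter, were both bright. COL5A2 read 3809.6, 4898 and 4162, and COL5A1 read 1727, 1828 and 2084. The third type V gene, COL5A3, read 29.1, 22.6 and 30.3, near the floor. For COL5A1 all 3 probe sets and for COL5A2 both probe sets passed the filter, and both type V genes exceeded 528 on each of these probe sets.

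Type I collagen, the main collagen of fibroblasts, tendon and bone, was dim. COL1A1 read 70.0, 103.9 and 136 by its brightest probe set, and none of its 4 probe sets was measured. Its partner chain COL1A2 read 34.0, 67.3 and 65.5. Both chains of type I thus lay under the filter while both bright type V genes were far above it.

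COL2A1 encodes the collagen of cartilage, and its chain also serves as a part of type XI collagen. Its signals were 2061, 2265 and 3090.5, so the control arrays lay close together and the anti-MYCN PNA array above both. A second probe set gave that order too, at 871, 1028 and 1658. Of the other cartilage and bone markers SOX9, a transcription factor known to activate COL2A1, was bright at 3103, 2768 and 3544. Aggrecan (ACAN), matrilin 3 (MATN3), RUNX2 and IBSP were not measured, with signals of at most 107.7. The part of these markers in the COL2A1 values was not tested. The type XI genes were dim: COL11A2 passed at 134, 167 and 173, and COL11A1 read 19.2, 16.0 and 36.4.

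COL3A1, the chain of the homotrimeric type III collagen of soft tissues, read 344, 406 and 319. Its second measured probe set, whose probes can also match other transcripts, read 219, 214 and 257. The first placed the anti-MYCN PNA array below both controls and the second above both, so the direction depends on the probe set. Counts and medians below use the first, brighter one. COL3A1 and COL5A2 are neighbours on chromosome 2, and for COL5A2 the anti-MYCN PNA array lay between the controls.

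The basement membrane genes split by chain. COL4A1 read 4411, 4173 and 4889, and COL4A2 read 4928, 4682 and 6877. Their dimmer probe sets read 973, 907 and 1542 for COL4A1 and 1031, 974 and 1344 for COL4A2. On all 4 probe sets the untreated array was slightly above mutated PNA and the anti-MYCN PNA array was above both. The genes COL4A3, COL4A4, COL4A5 and COL4A6, whose chains form the specialised networks of kidney, lung and some other basement membranes, were not measured on any of their 12 probe sets. Their brightest probe sets ranged from 1.7 to 56.0. COL4A3 and COL4A4, and likewise COL4A5 and COL4A6, also form head-to-head pairs, with 418 and 379 bases between starts.

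Fibrillar and basement membrane collagens were thus both present, each through a subset of chains. Of fibrillar genes 5 of 9, or 55.6%, and of type IV genes 2 of 6, or 33.3%, were measured, against 56.4% of all genes. The fibrillar share was thus near that of all genes. The 75th percentile was passed by 3 of the 9 fibrillar and 2 of the 6 type IV genes, and by 30.6% of all genes. Measured probe sets numbered 10 of 23 and 4 of 16.

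Outside these types, COL14A1, a FACIT collagen, was the single gene above the 75th percentile, at 884, 1037 and 646. Its other measured probe set read 98.4, 133 and 134 and went the other way between untreated and anti-MYCN PNA cells. COL21A1 read 153, 254 and 131, and COL16A1 read 182, 154 and 190.1, both also FACIT chains. The type IX genes COL9A1, COL9A2 and COL9A3, whose products decorate cartilage fibrils, and COL19A1 were not measured, with signals from 2.6 to 108.8.

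None of the 3 type VI genes on the array was measured. COL6A1, COL6A2 and COL6A3 together have 11 probe sets. The brightest, for COL6A1, read 110.8, 112 and 60.4, and COL6A3 was at most 4.2. Both multiplexin genes passed: COL15A1 read 145, 163 and 91.6, and COL18A1, the source of the fragment endostatin, read 133, 75.3 and 149.9. COL7A1 of anchoring fibrils, transmembrane COL13A1 and the short-chain collagens COL8A1, COL8A2 and COL10A1 were below the filter. In all, 20 genes were not measured, and for COL6A3, COL9A1, COL9A3 and COL19A1 even the brightest probe set was under 23.4, the pooled 25th percentile, on all 3 arrays.

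Set against both controls, no measured collagen gene was 2-fold apart on the anti-MYCN PNA array, while 1.16% of the 6745 genes compared reached 2-fold on the higher side and 1.26% on the lower side. These are 78 and 85 genes, which became 52 and 117 with quantile normalization and 17 and 209 with scaling to a common median. Signals under 23.4 were raised to it and log2 was taken, and a gene counts when the smaller of its 2 log2 differences reaches the threshold in the same direction. At 1.5-fold 1 collagen gene was lower, COL15A1, against 7.37% of all genes, and none was higher, against 8.27%. COL15A1 alone is 8.33% of the 12 members, a share near that background. The anti-MYCN PNA array was above both controls for 7 of the 12 genes, below both for 4, COL3A1 among them by its brighter probe set, and between them for COL5A2. However, of the 7 genes COL4A1, COL11A2, COL16A1 and COL18A1 lay between the controls with median scaling, and COL11A2 and COL16A1 with quantile normalization. Over all genes it was above both for 47.9% and below both for 37.6%. The log2 difference to the controls' mean had a median of 0.19 for the 12 genes and 0.06 for all genes. Quantile normalization gave 0.085 and 0.04, and median scaling −0.0032 and −0.13, so the sign of the collagen median depends on the scaling.

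The spread between the 2 control arrays is the one measure of background here. In each of 10 classes of mean signal, 95% of genes had controls within a given distance, from 0.94 on the log2 scale in the dimmest class to 0.28 in the brightest. By their brightest probe sets, COL4A2 and COL2A1 were further from both controls than that distance for genes of like signal, on the higher side. Of all genes 11% were. COL14A1 was so on the lower side, as were 10.6% of all genes. With median scaling and the distance recomputed, COL2A1 fell inside it, at 0.27 against 0.36, while COL4A2, at 0.28 against 0.27, and COL14A1 stayed outside.

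COL4A2 exceeded its level in mutated PNA cells by 0.55 on the log2 scale and that in untreated cells by 0.48, against 0.28 for its class. Its signal was 147% of that in mutated PNA cells. The median difference of that brightest class to the mean of the controls was 0.07. The second COL4A2 probe set gave 0.47 and 0.38. Genes of like signal to it had a control distance of 0.42, so its smaller difference was within that distance. COL4A1 differed less by its brighter probe set, by 0.23 and 0.15, within the control distance of 0.28, and more by its dimmer one, by 0.77 and 0.66. The dimmer COL4A1 probe set had a mean signal near that of the dimmer COL4A2 probe set. When every array was scaled to a common median instead, COL4A1 lay between the controls and COL4A2 stayed above both, by 0.28.

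COL2A1 was above mutated PNA by 0.45 and above untreated by 0.58, against 0.37 for its class, and by 0.69 and 0.93 on its second probe set. COL5A1 was above both controls on all 3 probe sets, by 0.19 to 0.47 against untreated and by 0.02 to 0.30 against mutated PNA. The brightest COL5A1 probe set was within the control distance of 0.37. Over the 5 measured fibrillar genes the median difference to the mean of the controls was 0.21, with a range from −0.23 for COL3A1 to 0.52 for COL2A1. For the fibrillar genes it became 0.087 with quantile normalization and 0.018 with median scaling. Over the 2 type IV genes it was 0.35, and 0.16 with median scaling. These medians hold too few genes to set one class against the other.

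On the lower side, COL14A1 was below mutated PNA by a log2 difference of −0.68 and below untreated by −0.45, against a control distance of 0.42. Because its second measured probe set gave 0.02 and 0.45, the direction depends on the probe set. COL15A1 differed by −0.83 and −0.66. It belongs to the dimmest class, where 95% of genes had controls within 0.94, so it did not leave that range. COL21A1 differed by −0.96 from mutated PNA and by −0.23 from untreated.

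**Figure D2:**
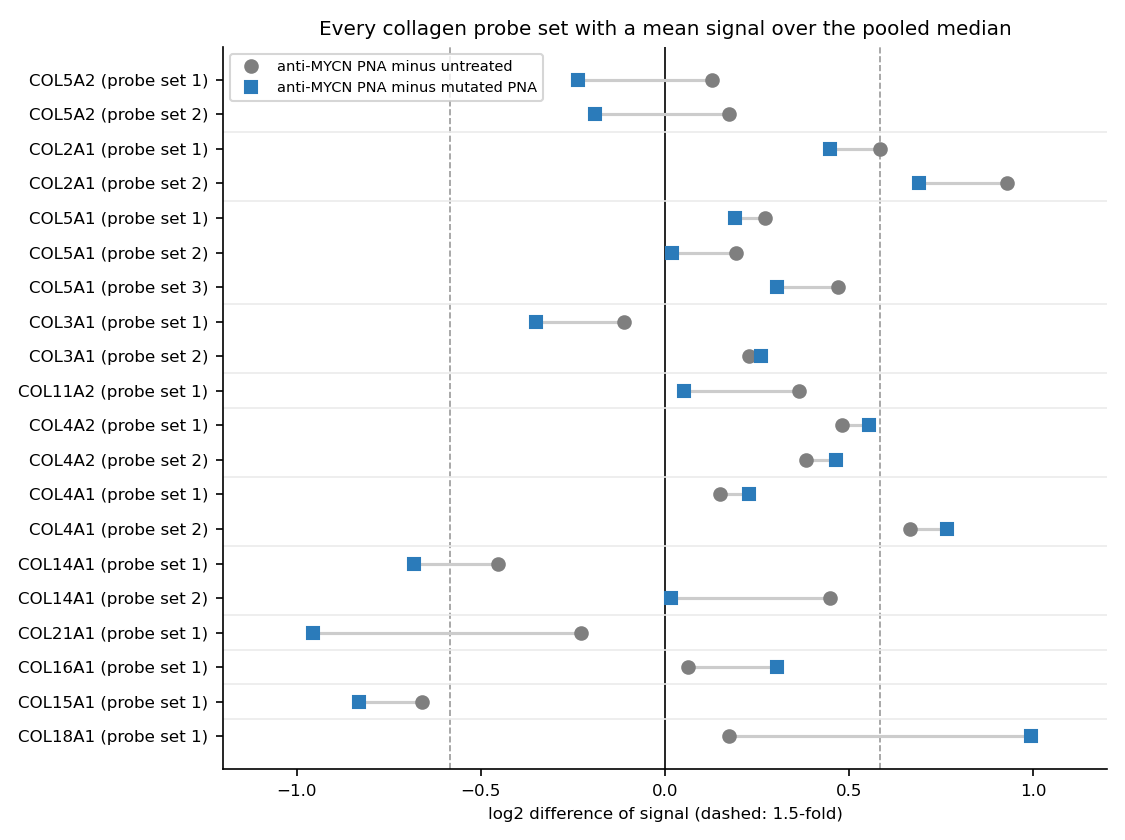
Log2 difference of the anti-MYCN PNA array to untreated (circles) and to mutated PNA (squares) for each of the 20 collagen probe sets with a mean of at least 117. Probe sets of a gene are numbered from the brightest, and dashed lines mark 1.5-fold. Both probe sets of COL2A1, COL4A1 and COL4A2 lie to the right of 0 against both controls, while the 2 probe sets of COL3A1 lie on opposite sides.

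Each control was also taken singly. Against mutated PNA none of the 12 genes was 2-fold higher or lower, where 2.7% and 2.33% of all genes were. Against untreated cells none was, where 3.07% and 2.31% of all genes were. Both comparisons use the one anti-MYCN PNA array. COL18A1 came nearest to 2-fold, at 0.99 above mutated PNA and 0.17 above untreated. Its second probe set, under the filter, gave 0.64 and 1.03. With quantile normalization and with median scaling, 2 of the 12 genes were 2-fold lower than mutated PNA, COL15A1 and COL21A1. The share of all genes past that threshold was not counted for these scalings, so these 2 genes have no background to be set against. By the stricter rule against both controls, a different measure, 85 genes in all were 2-fold lower, which became 117 and 209. Between the controls, too, no collagen gene was 2-fold apart, and 0.371% of all genes were higher and 0.371% lower in mutated PNA cells.

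Mutated PNA differed from untreated most for COL18A1, by −0.82, and COL21A1, by 0.73. The second COL18A1 probe set, under the filter, went the other way, by 0.40. COL21A1 was just beyond the control distance for its class, 0.72, and COL18A1 within it. COL5A2 was higher in mutated PNA by 0.36 on both of its probe sets. For the brighter probe set, 95% of genes of like signal do not pass a distance of 0.28. The dimmer probe set falls in a signal class with a distance of 0.37 and lay within it. COL4A1 and COL4A2 differed by −0.08 and −0.07. These directions hold only if the untreated array is labelled correctly.

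**Figure D3:**
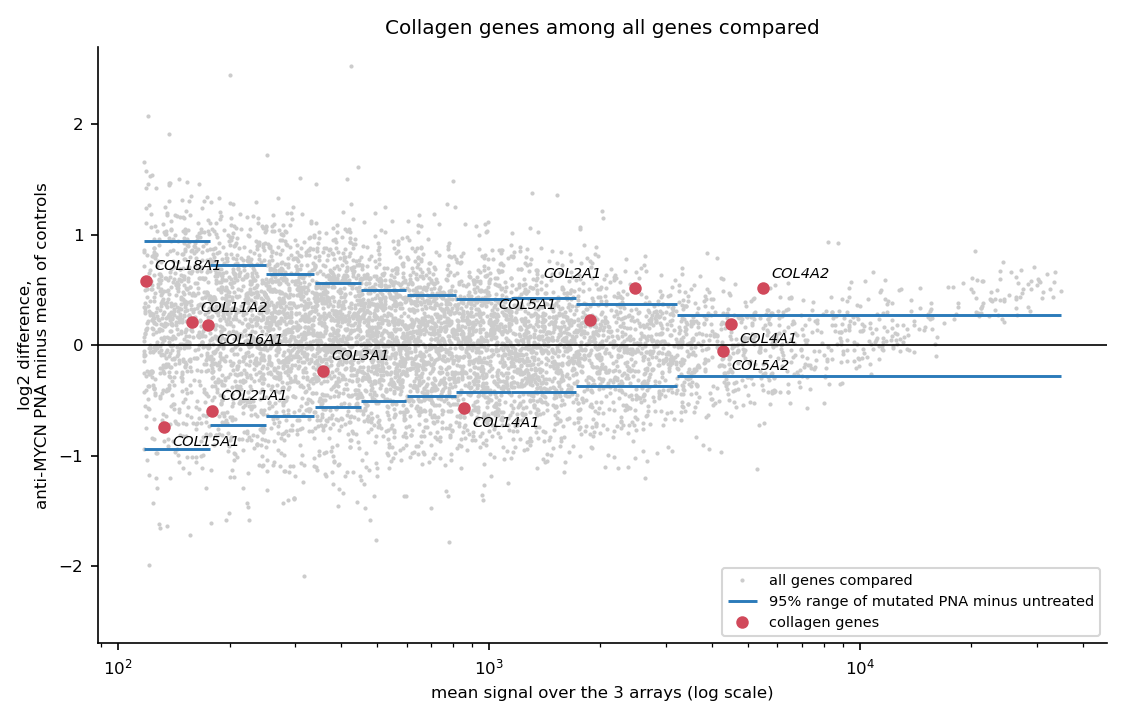
Anti-MYCN PNA minus the controls' mean, on the log2 scale, against mean signal (log scale) for the 6745 genes compared, with the 12 measured collagen genes as large points. Horizontal bars enclose 95% of the differences between mutated PNA and untreated in each of 10 classes of mean signal. COL2A1 and COL4A2 lie above the bars and COL14A1 below them; with median scaling COL2A1 was no longer beyond the control distance.

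Of the 20 genes that were not measured, 3 were at least 2-fold from both controls after the floor: COL13A1 by 1.71 and COL8A2 by 1.04 on the higher side, and COL10A1 by −1.24. Their signals were 14.9, 14.0 and 76.8 for COL13A1, 22.6, 42.0 and 86.5 for COL8A2, and 55.4, 58.7 and 13.9 for COL10A1. All 9 values lie below the pooled median. The other probe sets of these genes, 2 for COL13A1 and 1 each for COL8A2 and COL10A1, were under the floor of 23.4 on both PNA arrays. The floor alone sets their smaller difference to 0, so nothing is concluded from them. With no filter, 622 genes in all were 2-fold higher than both controls and 182 lower.

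The genes that fold, process, bind and degrade collagen are the other part of this pathway. Of the enzymes and chaperones that modify collagen chains inside the cell, 16 of 18 on the array were measured, against 56.4% of all genes. Of the 16, 2 exceeded both controls by 1.5-fold and 2 were as far below, against 8.27% and 7.37% of all genes. With quantile normalization 3 were higher and 2 lower, and with median scaling none was higher and 3 were lower. The shares of all genes at 1.5-fold were not counted for these scalings. COLGALT1, which adds galactose to hydroxylysine, read 989.8, 876 and 1624, and PLOD3, a lysyl hydroxylase, read 1156, 1113 and 1776. PLOD2, the lysyl hydroxylase of collagen telopeptides, went the other way at 721, 718 and 422, as did the prolyl isomerase FKBP14 at 423, 431 and 269.9. The median difference of the list was 0.0043, against 0.06 for all genes, with 7 members above both controls and 8 below.

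Among procollagen processing and cross-linking genes 7 of 11 were measured, against 56.4% of all genes. None was 1.5-fold from both controls, where 8.27% of all genes were higher and 7.37% lower. LOXL1, a lysyl oxidase-like cross-linking enzyme, read 1004, 1521 and 2065, and PCOLCE, which enhances the removal of the C-propeptide, read 682, 768 and 1081. LOXL2 and LOX differed from the nearer control by 0.32 and −0.34. The receptor subunit ITGB1, common to all collagen-binding integrins, was bright at 6524, 6021 and 5115, with the anti-MYCN PNA array lowest. The collagen-binding partner subunits on the array, ITGA1, ITGA2 and ITGA10, were not measured, with signals of at most 121.1. DDR2, a receptor tyrosine kinase for fibrillar collagen, read 327, 313 and 463, and MRC2, an endocytic collagen receptor, read 218, 227 and 333. GP6, the platelet collagen receptor, read 147, 153 and 317, which is 2-fold above both, by 1.05 on the log2 scale against the nearer control. With median scaling GP6 stayed past 1.5-fold but not 2-fold. Of 8 receptor genes on the array 4 were measured, against 56.4% of all genes. Of the 4, 1 was 2-fold higher than both controls, against 1.16% of all genes.

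Among basement membrane partners 10 of 14 were measured, against 56.4% of all genes. Of these, 3 were past 1.5-fold above both controls and none as far below, against 8.27% and 7.37% of all genes. Median scaling kept AGRN, LAMA5 and LAMB2 above and added LAMB1 below. AGRN, the heparan sulphate proteoglycan agrin of the muscle basement membrane, read 314, 298 and 677, and was above the nearer control by 1.11. The laminin chains LAMA5 and LAMB2 were above by 0.92 and 0.81, both in the dimmest class with a control distance of 0.94. HSPG2, or perlecan, read 1277, 1520.4 and 2211. LAMB1 was lower than both, at 1283, 1102 and 776, and LAMC1 read 3514, 3518 and 3295. COL4A2, by its brighter probe set, and perlecan thus lay above both controls beyond the distance of their class. Perlecan did not do so with median scaling, and the laminin chain LAMB1 lay below both controls.

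Of 12 genes for matrix that binds fibrils 7 were measured. Of these, 1 lay 1.5-fold or more below both controls, against 7.37% of all genes: THBS1, thrombospondin 1, at 163, 188 and 107. FMOD, fibromodulin, read 449.9, 581 and 867, whereas TNC, tenascin C, differed by 0.27 and FBN2, fibrillin 2, by 0.18. Among 14 genes of collagen breakdown and its inhibitors 5 were measured, against 56.4% of all genes. Of the 5, 2 were past 1.5-fold above both controls, against 8.27% of all genes, and none was as far below. The membrane-bound collagenase MMP14 read 229.9, 264 and 529 and was 2-fold above both controls, by 1.00 on the log2 scale against the nearer one. With median scaling MMP14 stayed past 1.5-fold but not 2-fold. TIMP2, an inhibitor that also takes part in MMP2 activation, read 549.9, 587 and 918, past 1.5-fold except with median scaling. TIMP1 and MMP2 were above the nearer control by 0.43 and 0.09.

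**Figure D4:**
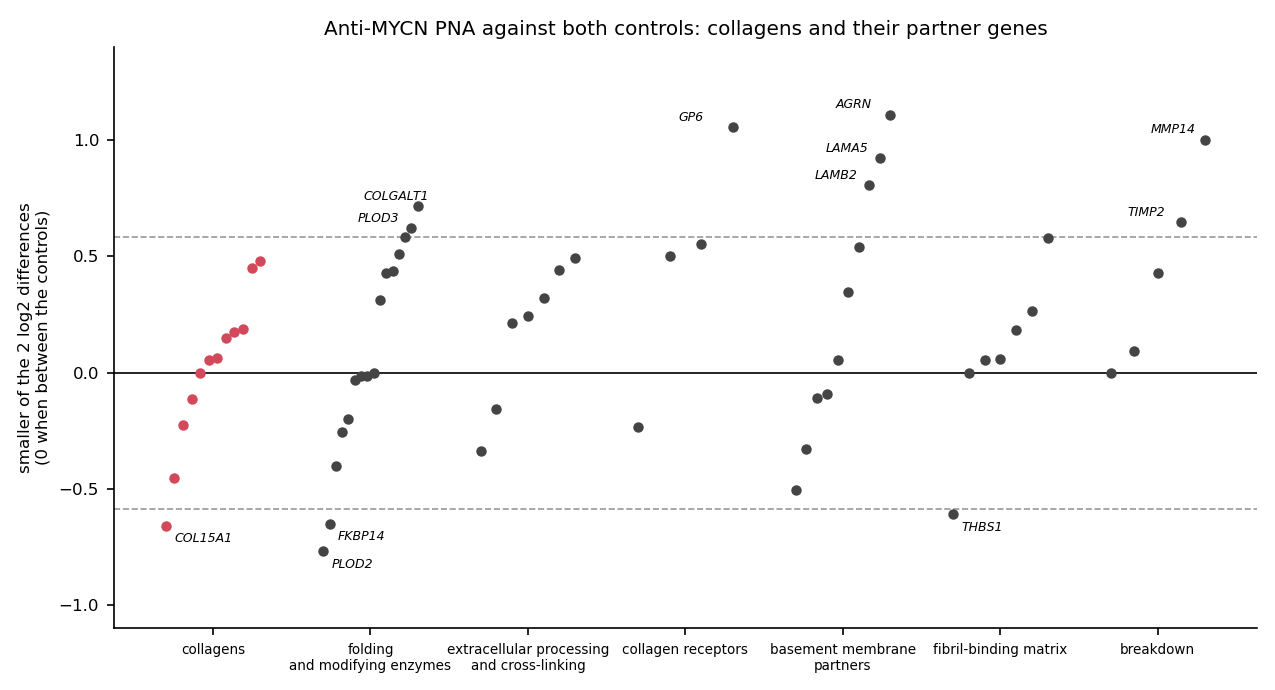
Smaller of the 2 log2 differences of anti-MYCN PNA to its controls for the 12 measured collagen genes and the measured members of 6 lists of partner genes, with 1 point per gene and dashed lines at 1.5-fold. Genes past 1.5-fold are named. COL15A1 is the collagen gene past a dashed line, and AGRN, GP6 and MMP14 are the partner genes above 1. With median scaling AGRN, GP6 and MMP14 stayed past 1.5-fold but not above 1.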

How the data were processed

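The deposited values are linear intensities, 1 signal for each probe set. The submitters' processing notes name MAS5 and GCOS as the authors' tools. Scanner files and detection calls were not used here. MAS5 scales each array by 1 factor, so an array whose bright signals are relatively stronger keeps that difference. Probe sets were named through the platform annotation and current RefSeq symbols. All 73 collagen probe sets had an unchanged symbol, and none names several genes. Each array was brought to the same 2% trimmed mean. A floor of 23.4, the pooled 25th percentile, was applied before log2. Of 22215 gene probe sets, those naming 1 gene with a mean of at least 117 were kept, and the brightest represented each gene. The number of arrays, 1 per condition, limits the precision, and no test was made.

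The members and lists were chosen with earlier results of these data known. Named are every measured collagen gene, unmeasured ones 2-fold from both controls, and up to 4 genes per partner list furthest from both. Other genes in the text, such as SOX9, LAMB1 and LAMC1, were picked with their values in view, as were the comparison with the control distance and the other scalings of it and of the partner lists. The 2-fold rule was tested on simulated data with the same noise for all genes. On the real arrays the controls lay further apart for dim genes, so the simulation does not show how the rule behaves for those. Alternatives covered scaling, filter, floor, threshold and choice of probe set. Protein sequences were not used here. The work used matplotlib 3.10.9, scipy 1.17.1, pandas 2.3.3 and numpy 2.4.6 under Python 3.11.15.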

Additional observations from a re-analysis of the deposited data

How the results depend on the processing

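The measured collagen genes numbered 32 with no filter, 6 with a filter at the pooled 75th percentile and 7 when _x_at and _s_at probe sets were left out. COL3A1, COL11A2, COL14A1, COL18A1 and COL21A1 rested on such probe sets alone. Median scaling moved the median of all genes to −0.13 from 0.06, and the genes 2-fold higher and lower than both controls to 17 and 209 from 78 and 85. Quantile normalization gave 52 and 117. The median of the collagen genes was 0.085 with quantile normalization and −0.0032 with median scaling, that of fibrillar genes 0.087 and 0.018. For type IV genes it was 0.16 with median scaling, 0.58 with no filter, where 4 dim genes enter, and 0.46 with the median over probe sets.

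Counts of collagen genes past the threshold, 0 as reported in all 8 comparisons, changed as follows. Of genes 2-fold lower than mutated PNA, quantile normalization and median scaling each gave 2, COL15A1 and COL21A1. With no filter, 2 genes were higher and 1 lower than both controls, and the same counts held against mutated PNA and against untreated taken singly. A threshold of 1.5-fold gave 1 lower than both controls, 1 higher and 3 lower than mutated PNA, 1 lower than untreated, and 1 higher and 1 lower between the controls. Of all genes 7.37% were 1.5-fold lower than both controls and 8.27% higher. With no filter, 622 of 11963 genes were 2-fold higher than both controls and 182 lower. For comparisons with 1 control, shares over all genes were not counted under these settings. The cause of the changed counts was not tested. The difference to the mean of the controls kept its sign for single genes in every alternative that measured them, with 3 exceptions. These were COL4A1 and COL16A1 with median scaling and COL3A1 with the median over probe sets. All 97 values of that difference moved by less than the control distance of their class. By the smaller of the 2 differences, COL11A2 and COL16A1 lay between the controls with quantile normalization and median scaling. So did COL4A1 and COL18A1 with median scaling, and COL3A1 with the median over probe sets, where COL14A1 was at −0.0024. For dim genes a distance of up to 0.94 limits what can be seen. No paired analysis was possible because each group has 1 array.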
